A study of Mus musculus with 2 samples.

Results

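Most protein-coding genes that gave piRNA-size reads in these mouse testes gave them from their own strand, and the genes described here are the exception. They are 96 coding genes chosen by their measured reads. A gene of the GENCODE M21 annotation was taken when at least 200 reads of 24 to 32 nt, summed over the deposited tables, matched its exons exactly and at least 90% of them were antisense to the gene. A read with several places, a place being a distinct position among the annotated transcripts, was shared equally over them. The read minimum was met by 4553 annotated genes, of which 3384 were coding, and 97 of these (2.87%) met the thresholds. The chosen genes number 96 because Smyd5 was left out by name. Another 2427 coding genes (71.7%) had at least 90% of reads in sense, here called sense-type genes, and 860 lay between. The number of reads and the antisense share chose the members, so both are given below as a description only.

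Small RNA was gel-purified from total RNA of testes of mice at 23 dpp (days post partum) on the C57BL/6 background. The labels give a Stambp-ps1+/- sample and a Stambp-ps1-/- sample, where Stambp-ps1 is a pseudogene of the deubiquitinase gene Stambp, and they name neither the number of animals nor how the allele was made. By the record both tables belong to the Stambp-ps1-/- sample, yet one is named KO and the other het. They are therefore called KO-named and het-named and were put in no genotype group. Each table is 1 library of whole testis, a tissue of germ cells and somatic cells, and no test between groups was possible.

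In germ cells, PIWI proteins carry small RNAs called piRNAs, which lead them to RNA of complementary sequence. They are cut from long single-stranded precursors, which in the testis are noncoding transcripts of piRNA clusters, transposon transcripts and the 3′ untranslated regions of some mRNAs, and most of them begin with U. In the ping-pong cycle a PIWI protein cuts a transcript opposite its guide, and the new piRNA overlaps the guide by 10 bases, so that a guide beginning with U meets a partner with A at base 10. piRNAs bound by MIWI, the PIWI protein of pachytene spermatocytes and round spermatids, are longer than those bound by MILI. A read antisense to an mRNA cannot be a fragment of that mRNA, and it is complementary to it.

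In total 54384974 KO-named and 62773871 het-named reads of 18 to 32 nt were deposited, of which 43173943 and 47015300 were 24 to 32 nt long. Of these, 17.0% and 16.1% matched an annotated transcript. Abundance is given as RPM, the reads in 1000000 of all deposited reads of that library, and paired values stand in the order KO-named, het-named, where 3 reads are 0.0552 and 0.0478 RPM. Intervals are 95% Clopper-Pearson intervals, and those of ratios come from the conditional binomial. Where reads had several places the intervals were computed on the shared counts, so they are not exact there. None covers more than counting error: reads amplified by PCR and lacking molecular identifiers do not each stand for a molecule. The miRNAs listed for germ cells and testis ranged from Mir184 (79.8 and 103 RPM) to Mir871 (7619 and 8010 RPM), and those for somatic testis from Mir202 (97.2 and 100.03 RPM) to Mir10b (19697 and 15718 RPM). Of the miRNAs of other tissues, Mir451a had 3.51 and 1.86 RPM, Mir223 5.07 and 2.69 RPM, and Mir122 0 reads in each.

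Together the 96 genes held 3087 RPM and 2672 RPM, which was 0.389% and 0.357% of all reads of 24 to 32 nt. The reads were spread unevenly. The 5 members with most reads (Stox1, Spin1, Mrps25, Mif and Kcnk10) held 52.2% of them, 8 members had at least 10000 reads, and 62 had under 1000. The antisense share was at least 95% in 61 members and 100% in 6, and 94 members reached 90% in each table alone. Just inside the read minimum were S1pr5 (200.4 reads), Ncald (203) and Odf3 (204), and just outside it Wnt2b (199), Rilpl1 (193) and Ip6k3 (192). Just inside the antisense threshold were Slc13a5 (90.4%) and E430018J23Rik (91.1%), and just outside it Serhl (89.9%), Dgkz (89.8%) and Rnf214 (89.2%).

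The members were not of 1 kind in what else lay at the places of their reads. An annotated gene lay on the opposite strand in 58 members (60.4%), against 1610 of the 3384 coding genes (47.6%), and an exon of such a gene overlapped the member in 46 (47.9%) against 35.4% of the coding genes. In only 23 members did at least 50% of the antisense reads lie inside such an exon. No annotated gene overlapped on either strand in 33. The share of reads with 1 place was at least 90% in 51 members and under 10% in 31. It was at least 50% in 62 members (64.6%), against 94.1% of the sense-type genes. These 2 properties were used to sort the members, with thresholds of 50% set after the values were seen. In 21 members most reads had 1 place and at least 50% of antisense reads lay over an exon of another gene on the opposite strand. In 41 most reads had 1 place and under 50% of antisense reads lay over such an exon, and in 34 most reads had several places. Of these 41, 15 also had an exon opposite, which held the most antisense reads in Ankzf1 (46.2%), Sned1 (33.4%) and Bace1 (24.6%). The 3 kinds held 17.0%, 47.3% and 35.6% of the members' reads. Reads were matched to transcripts and not to a genome, so a read with 1 place may also match unannotated sequence.

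The 41 members with 1 place whose reads lay mostly outside annotated opposite exons were led by Stox1, Spin1 and Kcnk10. For each of the leading members the most abundant antisense read of 24 to 30 nt is shown as 1 example of the molecules behind the counts, 5′ to 3′, with T for U and the first base in capitals. They lie on GRCm38 at chr10:62664765-62664789 (plus strand, Stox1), chr13:51149800-51149829 (minus strand, Spin1), chr12:98435331-98435358 (plus strand, Kcnk10), chr19:15974697-15974722 (plus strand, Cep78) and chr1:88262133-88262160 (minus strand, Mroh2a), each opposite to its gene and each with 1 place.
Stox1: Tctaagaggccgaggttttggaact
Spin1: Tggtactcagaaattctgactttttaaaca
Kcnk10: Tgtcatggatctcaacgctgagccgcct
Cep78: Tacaaatcgagttccaggacagccag
Mroh2a: Tagcaataaatctgagagcctggcacct
The Stox1 read was counted 2519 times and 2248 times, the Spin1 read 2509 and 2559 times, and the Kcnk10 read 258 and 293 times. The Cep78 read had 1206 and 1202 counts and the Mroh2a read 614 and 617.

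Stox1 (ENSMUSG00000036923.12, chr10:62659043-62726128, minus strand), which encodes a winged-helix DNA-binding protein, had the most reads of all members. It had 553 RPM (547 to 559) and 474 RPM (468 to 479), with 98.2% antisense and 99.9% at 1 place. The antisense reads began at 1365 distinct positions, and the most frequent start held 11%. Over coding sequence lay 97.0% of them and over the 3′ UTR 2.98%, with 94.3% in 1 of 5 exon blocks. The first base was U in 88.6%, and 48.0% of reads were 29 to 31 nt long. A small share matched across a splice junction of the gene on the antisense strand, 0.535% or 314 reads, all with 1 place. No minimum number of bases on either side of the junction was set. On the opposite strand the annotation has 3 genes within the span of Stox1, the pseudogenes Gm18514 and Gm47261 and the miRNA Mir7215, none with an exon over an exon of Stox1.

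Spin1 (ENSMUSG00000021395.11, chr13:51100880-51152546, plus strand), a reader of methylated histones, had 300.1 RPM (295.5 to 304.7) and 256 RPM (252 to 260.3). No annotated gene overlapped it. The reads were narrow in place: 52.0% of the antisense reads began at 1 position of the 3′ UTR, 89.3% lay in that UTR, and 73.0% were 29 to 31 nt long. The antisense share, 91.4%, was among the lower ones. Reads across a junction were 7.33% of the antisense reads (2171 reads), the highest share of any member, but only 1 of those reads had 1 place. The most frequent of them had 913 KO-named and 718 het-named counts and 3 places, which were Spin1 and the pseudogenes Gm7787 and Spin3-ps, each antisense. Trcg1, described as a taste receptor cell gene, came next with 6.95%, or 23 reads, and all of these had 1 place. The most frequent junction reads of both are shown, with the bases beside the junction in capitals.
Spin1 junction: tccgagatgttGCaactctatcagggagga
Trcg1 junction: tagaatcttgacacttcgtgggtgaCC
The Trcg1 read had 8 KO-named and 5 het-named counts, and only 1 of its bases, the last, lies past the junction. No minimum number of bases past a junction was set, and reads were not matched to the genome. A junction read may therefore also match unspliced sequence. A junction read was found in 42 members and reached 1% in 9. The median member had 0%, against 2.68% of the sense reads of the median sense-type gene.

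Kcnk10 (ENSMUSG00000033854.10, chr12:98429437-98578310, minus strand), a background potassium channel, had 209 RPM (205 to 212) and 188 RPM (185 to 192). All of its reads had 1 place and 99.6% were antisense. They began at 1537 distinct positions, of which the most frequent held 3.29%. In the spliced transcript they ran from a point inside the coding sequence to the end of the 3′ UTR, 39.9% over coding sequence and 60.1% over the UTR, and 88.6% lay in 1 of 12 exon blocks. A first U was found in 81.3% of its antisense reads. The noncoding gene Gm40893 lies opposite within its span, and 0% of the antisense reads were in an exon of it.

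**Figure D1:**
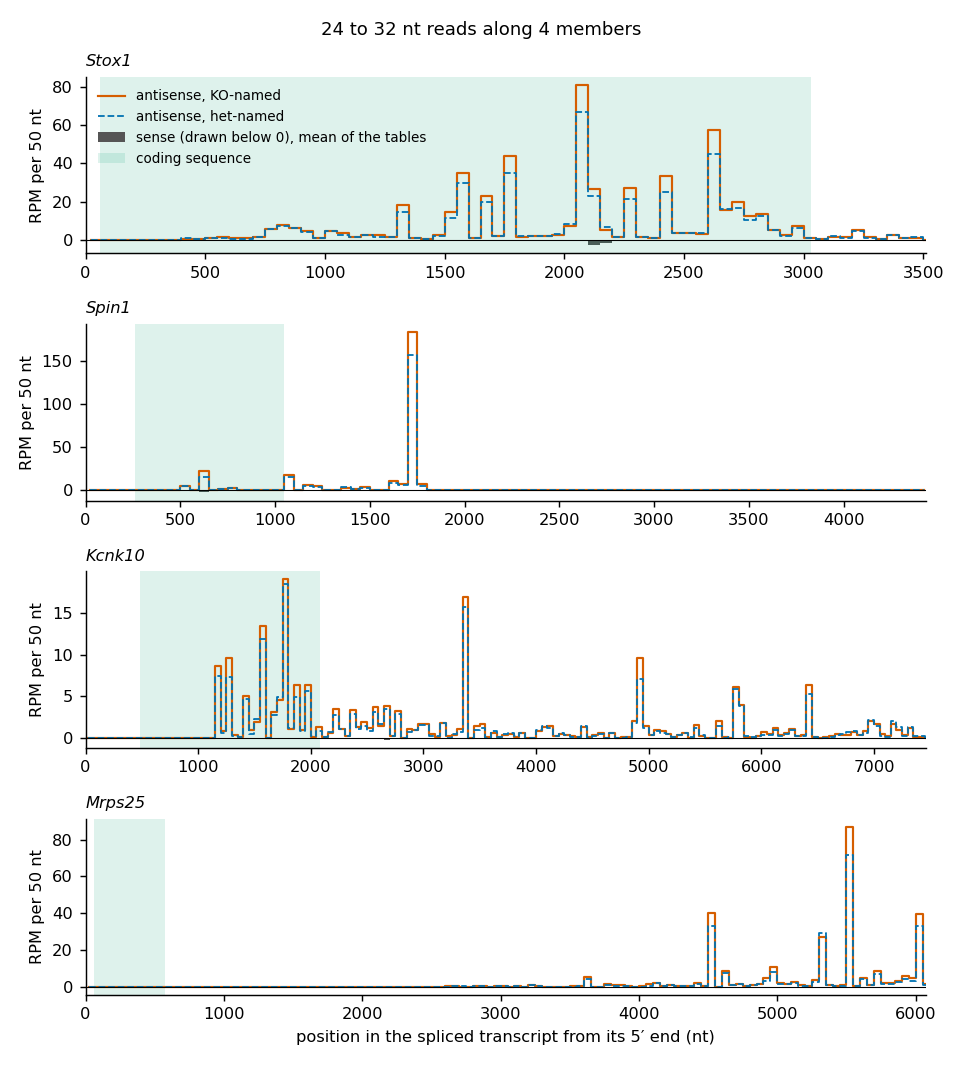
Reads of 24 to 32 nt along the spliced transcripts of Stox1, Spin1, Kcnk10 and Mrps25 (x axis, nt from the 5′ end), in RPM per 50 nt; the solid line is the KO-named and the dashed line the het-named table in antisense, sense reads are drawn below 0 and the coding sequence is shaded. Stox1 has antisense reads over its coding sequence, Spin1 has 66.9% of them in 1 bin of its 3′ UTR, and Kcnk10 is covered up to its 3′ end. In Mrps25 the antisense reads lie along the 3′ UTR, with 29.9% of them in 1 bin.

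The plot of reads along 4 transcripts shows that the highest bin of each stood at the same position in both tables. In the highest bin of 50 nt, Stox1 had 80.7 RPM and 66.7 RPM, and Spin1 had 183 and 157 RPM. Antisense reads were found in 64 of 71 bins of Stox1, 22 of 89 bins of Spin1, 124 of 150 bins of Kcnk10 and 82 of 122 bins of Mrps25.

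Cep78, a centrosomal protein, and Mroh2a, a protein with HEAT repeats, had reads concentrated at few positions. Of the Cep78 antisense reads 96.4% began at 1 position, which lies in an exon of a noncoding transcript of the gene, 99.3% began with U and 96.6% had A at base 10. Of these reads 46.2% were 24 to 25 nt and 0.296% were 29 to 31 nt. Over 18 to 32 nt, the reads from that start were most often 26 nt (32.7%) and 25 nt (26.8%), and 13.6% were 22 nt long. Cep78 had 49.6 RPM (47.7 to 51.5) and 49.5 RPM (47.7 to 51.3). In Mroh2a 67.4% of reads shared a start, 77.4% had A at base 10 and 74.8% were 26 to 28 nt long, with 44.7 and 39.7 RPM.

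The other members of this kind each had at most 41 RPM. Mfsd4a, a transporter-like protein of the major facilitator superfamily, had 41 RPM and 34.8 RPM, with 88.3% of reads over the 3′ UTR and no start above 6.23%. Gsdme, a pore-forming gasdermin, had 26.1 and 27.1 RPM and 61.4% at 1 start. Gm4884 had 25.2 and 20.6 RPM over its coding sequence (81.2%), and 50.2% of its reads had 1 place. It shared reads with Gm5592 and Gm5114, also on chromosome 7, of whose reads 64.4% and 12.5% had 1 place. Among members with no overlapping gene, Arc, a synaptic plasticity gene, had 7.70 and 5.97 RPM and Gpr35, a receptor, had 8.11 and 7.62 RPM. Echdc2 had 8.88 and 6.37 RPM, and Kcnh6, a voltage-gated potassium channel, had 7.58 and 7.10 RPM. Vmn2r5, Trcg1, Olfr1118 and Ugt3a1 had 1.75 to 3.35 RPM and 2.13 to 3.13 RPM. In Arc the reads lay in all 3 exon blocks, while 18 of the 41 members had at least 90% of reads in 1 block.

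Hrnr (ENSMUSG00000041991.18, chr3:93319749-93333570, plus strand) encodes hornerin, a repeat-rich protein of the epidermis, and was sorted with the members of several places. The places of its reads, however, all lay in Hrnr itself: 96.3% of the antisense reads had several places, up to 16, and every place was in the gene. There were 4054 antisense reads and 4560, and 0 sense reads in either, which allows up to 0.0552 and 0.0478 RPM in sense. The reads were 1106 distinct sequences, against 4126 in Stox1 and 3671 in Kcnk10, and the median read had 10 places. Shared over their places they began at 3186 positions, a number that the sharing raises, and 99.8% lay over coding sequence. A first U was found in 83.5%. Hrnr had 74.5 RPM (72.3 to 76.9) and 72.6 RPM (70.5 to 74.8). Which repeat of the gene a read came from cannot be told apart.

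In the 21 members with reads mostly over an opposite exon, the antisense reads that lay in that exon were sense to the other gene. They were from 50.7% of the antisense reads in Traf3ip2, 72.8% in Acsm3 and 81.2% in Rarres2 to 100% in several others. Of these partner genes 18 were coding, and 20 had at least 90% of their own reads in sense, where 71.7% of all coding genes did. A partner was picked because the shared reads were sense to it, and these were a median of 48.4% of its sense reads. The count of 20 is therefore partly set by the choice. In 17 of the partners at least 50% of the shared reads lay in the 3′ UTR. In 13 of the members the same held, and in 11 pairs in both. How often opposite exons overlap in 3′ UTRs by annotation alone was not counted. The shared reads made up at least 50% of the sense reads of the partner in 9 pairs. The leading read of Mrps25, the member of this kind with most reads, lies at chr6:92170055-92170084 (plus strand, GRCm38) where the 3′ UTRs of Mrps25 and Nr2c2 overlap, and is shown with its first base in capitals.
Mrps25: Tgatttatgagtctgtgatactccaagcct
That read had 2127 KO-named and 2134 het-named counts.

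Mrps25 (chr6:92169525-92184033, minus strand), a protein of the mitochondrial ribosome, had 290 RPM (285 to 294) and 243 RPM (239 to 247), with 83.1% of reads at 1 place and all antisense reads over its 3′ UTR. Of its antisense reads 99.9% lay in exons of Nr2c2 (chr6:92091390-92174294, plus strand), an orphan nuclear receptor, and made up 63.6% of the sense reads of that gene. Nr2c2 had 456 and 380 RPM. For 1110051M20Rik, 90.9% of antisense reads lay in Arfgap2, a regulator of Arf GTPases, and 96.7% of these in the Arfgap2 3′ UTR. Slc25a35, a carrier of the mitochondrial inner membrane, lay over Rangrf, a Ran-binding protein, and the shared reads were 97.0% of the Rangrf sense reads, with 65.5% over Rangrf coding sequence. Gpld1, a phospholipase, lay over Mrs2, a mitochondrial magnesium channel, with 100% of the shared reads in the Mrs2 3′ UTR.

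The remaining pairs had fewer reads. Among them were Myo1h and Kctd10, Cd247 and Pou2f1, Fam57a and Glod4, Inpp5e and Pmpca, Serpinc1 and Zbtb37, Serinc4 and Serf2, Tmod1 and Tstd2, Ldlrad4 and Fam210a, Rarres2 and Lrrc61, Tomt and Anapc15, E130208F15Rik and Sdhaf1, Tgm4 and Zdhhc3, and Acsm3 and Eri2. The partner was noncoding in 3 pairs: 1700051A21Rik opposite Slc13a5, E130307A14Rik opposite Traf3ip2, and Rmrp, the RNA of RNase MRP, opposite Ccdc107. The Ccdc107 reads were 2.63% of the reads of Rmrp.

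The 34 members whose reads had several places had a median of 7 places. Their reads piled up on few sequences: 1 start held over 50% of reads in 24 of the 34, against 8 of the 41 members with 1 place and 1 of the 21 mostly over an opposite exon. In 31 of the 34 at least 90% of the reads lay in 1 exon block. Several members counted the same molecules. Members were linked when at least 10% of the reads of either were shared with the other, and 30 of the 96 fell into 7 linked groups. Links can chain: in the group of Cd8b1, Ddx55, Mfsd4a and Tmod1 only 4.77% of antisense reads lay in more than 1 member. The reads that tie the main groups together are shown, with the leading reads of Mif, Olfr1152 and Psg29, in the same way as above. Of their places, those in the member lie at chr10:75859735-75859760 (plus strand, Mif), chr2:87873424-87873453 (minus strand, Olfr1152), chr7:17215639-17215668 (minus strand, Psg29), chr13:93656045-93656074 (plus strand, Bhmt2), chr15:44373819-44373848 (plus strand, Nudcd1) and chr3:36515513-36515537 (plus strand, Gm11549).
Mif: Ttactgtagttgcggttctgggcacc
Olfr1152: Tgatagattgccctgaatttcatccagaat
Psg29: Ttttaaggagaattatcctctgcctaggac
Bhmt2: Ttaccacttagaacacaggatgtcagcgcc
Nudcd1: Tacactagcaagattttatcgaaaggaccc
Gm11549: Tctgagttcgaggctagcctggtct
The Bhmt2 read had 39 places and was counted 50423 times and 52100 times (927 and 830 RPM before sharing). It was antisense to 5 members (Bhmt2, Ndufaf2, Olfr11, Psg23 and Psg29) and sense to 12 coding genes. The Nudcd1 read had 16 places, 7568 and 8615 counts, and tied together Nudcd1, Olfr204, Olfr344, Olfr646 and Ppcdc. The Gm11549 read had 25 places, 7385 and 4996 counts, and tied together Gm11549, Litaf, Olfr822, Pi16 and Tmbim1.

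Mif, the gene of a secreted cytokine, led this kind with 259 RPM (255 to 264) and 234 RPM (230.2 to 238). Of its reads 26.2% had 1 place, and 73.1% of the antisense reads were also sense to the processed transcript C230062I16Rik. The Mif read shown had 2 places and 4321 and 4803 counts. Olfr1152, an olfactory receptor gene, had 163 and 135 RPM, Psg29, a pregnancy-specific glycoprotein, 133 and 111 RPM, and Bhmt2, a methyltransferase of methionine synthesis, 122 and 99.5 RPM, all with reads over the 3′ UTR. Of the antisense reads of Psg29 and Bhmt2, 99.4% and 98.8% were also sense to the long noncoding RNA Gm49794. For these members a read over the gene and a read from elsewhere cannot be told apart. In Ndufaf2, an assembly factor of respiratory complex I, Olfr11 and Psg23 the median read had 39 places.

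First base and length within 24 to 32 nt were not used to choose the genes. Of the members' antisense reads, 89.7% (89.5 to 89.8) and 89.6% (89.5 to 89.8) began with U. The sense reads of the sense-type genes began with U in 81.9% and 77.9%, their few antisense reads in 71.9% and 71.5%, and all reads of 24 to 32 nt in 78.8% and 73.6%. The intervals did not overlap, and they cover counting error within these 2 libraries alone. The members' own sense reads, 4802 and 5126 in number, began with U in 65.9% (64.5 to 67.2) and 66.2% (64.9 to 67.5). They had A at base 10 in 53.7% and 54.2%, against 34% and 34.8% of the antisense reads. This was not particular to the members: in the sense-type genes the antisense reads had it in 50.2% and 51.8% and the sense reads in 29.1% and 28.9%. Counted by gene, the median first-U share was 90.1% over the members and 81.7% over the sense-type genes. With each distinct sequence counted once, 72.3% of the members' antisense sequences began with U and 36.1% were 29 to 31 nt long. The sense-type genes were not counted in this way, so whether the first-U difference holds by distinct sequence was not tested. The median first-U share by gene was 87.3% in the members mostly over an opposite exon, 89.2% in the other members with 1 place and 92.6% with several places. Members that share reads each count in these medians, so they are not all separate observations.

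**Figure D2:**
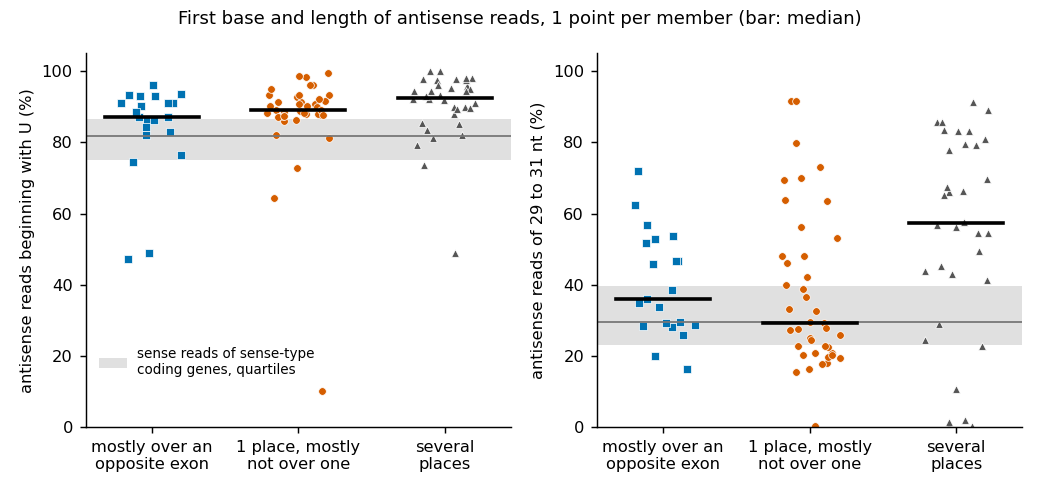
Share of antisense reads that begin with U (left, %) and that are 29 to 31 nt long (right, %), 1 point per member in the 3 kinds, with the median of each kind as a bar; the grey band and line are the quartiles and median of the sense reads of the sense-type coding genes. Of 96 members 86 lie at or above 80% first U, where the sense-type genes have a median of 81.7%. The members with several places have the highest median share of 29 to 31 nt, 57.3%. Members that share reads are drawn as separate points, so the points are not all independent.

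The plot of first base and length by member shows 86 members with a first U in at least 80% of antisense reads and 4 below 60%. These were Hes7, a transcriptional repressor of the segmentation clock (10.2%, with 80.7% of reads at 1 start), Ccdc107 opposite Rmrp (47.1%), Slco1a6, an organic anion transporter (48.9%), and Slc13a5, a citrate transporter (49%). They had 247 to 836 reads each, and they were singled out after their values were seen. The longer piRNA sizes, 29 to 31 nt, were 51.1% of the members' antisense reads and 51.3%, against 40.4% and 40.6% of the sense reads of sense-type genes and 48.8% and 47.2% of all reads of that size range. Those of 26 to 28 nt made up 32% and 31.8%, against 44.2% and 42.5% in the sense-type genes.

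**Figure D3:**
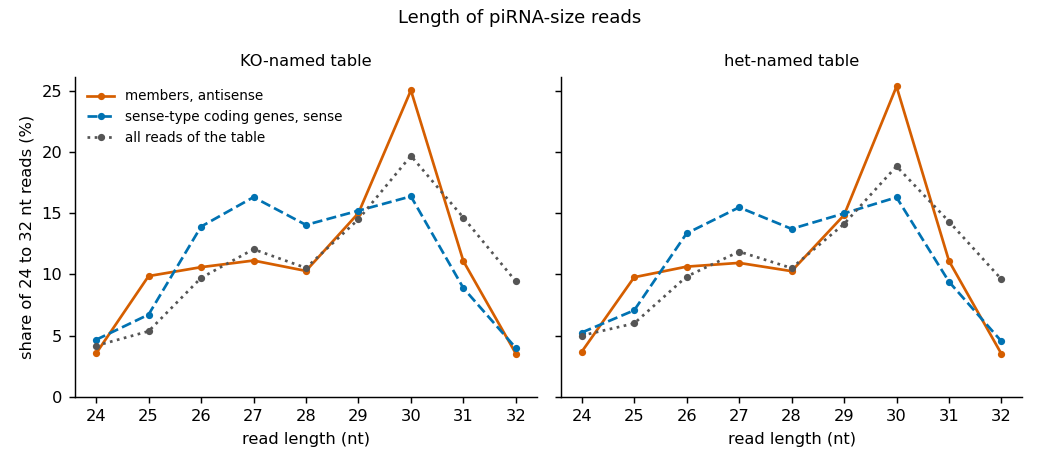
Length of reads of 24 to 32 nt (x axis, nt) as a share of those reads (y axis, %) in the KO-named (left) and het-named table (right), for antisense reads of the members, sense reads of sense-type coding genes and all reads of the table. The members peak at 30 nt with 25% and 25.3%, where the sense-type genes have 16.4% and 16.3%.

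The length distributions were nearly the same in both tables, with the members' peak at 30 nt. At 27 nt the sense-type genes had 16.3% and 15.5% and the members 11.1% and 10.9%. By gene the picture was mixed. The most frequent length was 30 nt in 39 members, but 49 of the 96 had more reads of 26 to 28 nt than of 29 to 31 nt. These were 27 of the 41 members with 1 place, 13 of the 21 mostly over an opposite exon and 9 of the 34 with several places. The share of 29 to 31 nt had a median of 29.3% in the first of these kinds, near the 29.6% of sense-type genes, 36.0% in the second and 57.3% in the third. Many members of the third kind share reads and are not separate observations.

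The members' antisense reads lay over 3′ UTRs in 60.1%, over coding sequence in 31.7% and over 5′ UTRs in 1.21%. By member the 3′ UTR share had a median of 78.9%, with quartiles of 2.99% and 100%. These shares were not computed for other coding genes, so they are not shown to be particular to the members. In the members mostly over an opposite exon the 3′ UTR share was 91.1% and the coding share 2.27%. In the other members with 1 place they were 41.1% and 50.9%, to which Stox1 contributed most. In 20 of those 41 members at least 50% of reads lay over the 3′ UTR and in 11 over coding sequence.

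Sense and antisense reads of the members overlapped most often by 10 nt. Of all pairs of opposite reads whose starts overlapped by 1 to 20 nt, weighted by reads, 24.6% and 26.4% overlapped by 10 nt. With each pair of positions counted once the shares were 6.20% and 6.12%, and 10 nt was again the most frequent overlap. In this count the peak was small: the next highest shares, at 20 nt, were 5.52% and 5.75%. Other coding genes were not counted in this way. The share was 24.2% in Stox1, 28.9% in Spin1, where 5 nt was the most frequent overlap, 30.4% in Kcnk10, 38.8% in Mif and 62.7% in Psg29. Weighted by reads, other members did not peak at 10 nt. Olfr1152, with the largest pair weight of the members examined singly, had 12.4% at 10 nt and its peak at 18 nt. Slc25a35 had 12.8% and its peak at 12 nt, and Mrps25 had 23.4% and its peak at 8 nt. The share was 3.65% in Mroh2a and 0.957% in 1110051M20Rik. With each pair of positions once Psg29 had 5.33%, with its peak at 12 nt. Hrnr had no pairs, as it had no sense reads. Without Spin1 the read-weighted share over both tables was 24.7% and without Stox1 25.9%, against 25.5% with all members. By kind it was 13.3% mostly over an opposite exon, 26.7% in the other members with 1 place and 24.8% with several places. A pair from Stox1 is shown, with the 10 overlapping bases of each read in capitals.
Stox1 antisense: TGAGTCCTCAaacgatttgcaccagctg
Stox1 sense: TGAGGACTCAtgaaagacaagatggcaact
The antisense read (chr10:62664732-62664759, plus strand) had 33 KO-named and 25 het-named counts, and the sense read (chr10:62664712-62664741, minus strand) had 21 and 22.

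**Figure D4:**
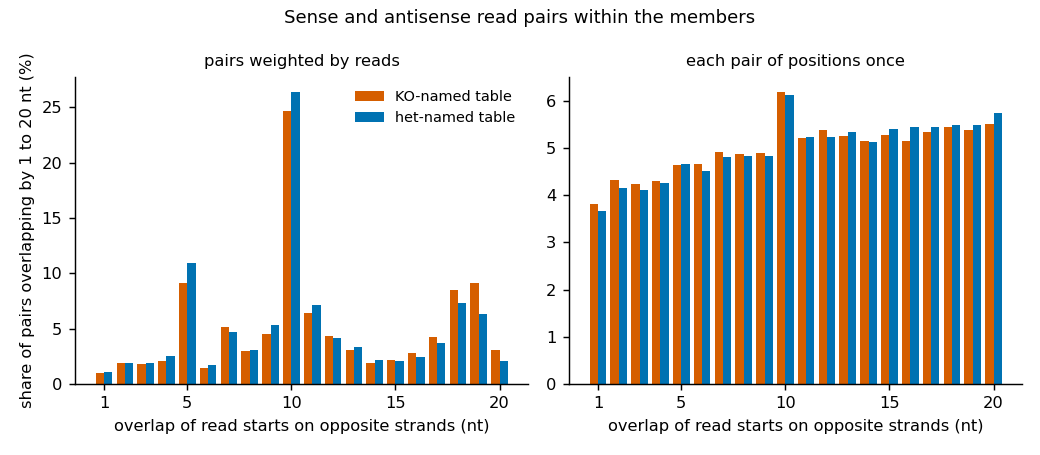
Overlap between starts of sense and antisense reads of the members (x axis, nt) as a share of pairs overlapping by 1 to 20 nt (y axis, %), in the KO-named and het-named table, with pairs weighted by reads (left) and each pair of positions once (right). The bar at 10 nt is the highest in each panel, at 24.6% and 26.4% on the left and 6.20% and 6.12% on the right. On the right the bars at 20 nt come next, at 5.52% and 5.75%.

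The plot of overlaps also shows the second highest read-weighted bar at 5 nt in the het-named table (10.9%) and at 19 nt in the KO-named table (9.15%).

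Reads of 18 to 23 nt, which the rule did not use, were antisense in 84.1% (83.3 to 84.9) of the KO-named and 82.8% (82.0 to 83.5) of the het-named reads over the members, which had 159 and 160.4 RPM of them. Such reads can be shorter forms from the same starts as the longer reads that chose the members, as at the main start of Cep78. Their strand is therefore not separate from the rule, and the share over other coding genes was not computed. The antisense strand held at least 50% of these shorter reads in 83 members and less in 13. Spin1 was among the 13, with 24.4% of 529 and 622 such reads, and Zfp457, a zinc-finger gene, had the lowest share, 6.54%. The median over members was 83.5%, and by kind it was 93.5% mostly over an opposite exon, 85.3% in the other members with 1 place and 76.4% with several places.

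Between the tables the members differed little, and by about as much as other coding genes. The log2 of KO-named over het-named RPM, with 0.5 reads added to each count, had a median of 0.22 over the members, against 0.21 over the 3384 coding genes. It was above 0 in 82 of the 96 members, while 87.9% of all coding genes with at least 200 reads were above 0. It passed 1 in size in 0 members, against 0.0296% of the coding genes and 0.351% of all genes. The range ran from -0.33 to 0.70, and coding genes had -0.11 and 0.49 at their 5% and 95% points. The counting interval of the ratio lay above 1 in 48 members (40.8% of coding genes). It lay below 1 in 2, Nbeal1 and Ddx55 (0.857% of coding genes), and held 1 in 46. For members with several places it rests on shared counts, and how far this split depends on the sharing was not tested. By kind the median was 0.29 mostly over an opposite exon, 0.22 in the other members with 1 place and 0.15 with several places. Scaling to miRNA reads lowered every value by 0.24, so that 44 members lay above and 52 below 0. A direction for the members as a group therefore depends on the scale.

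**Figure D5:**
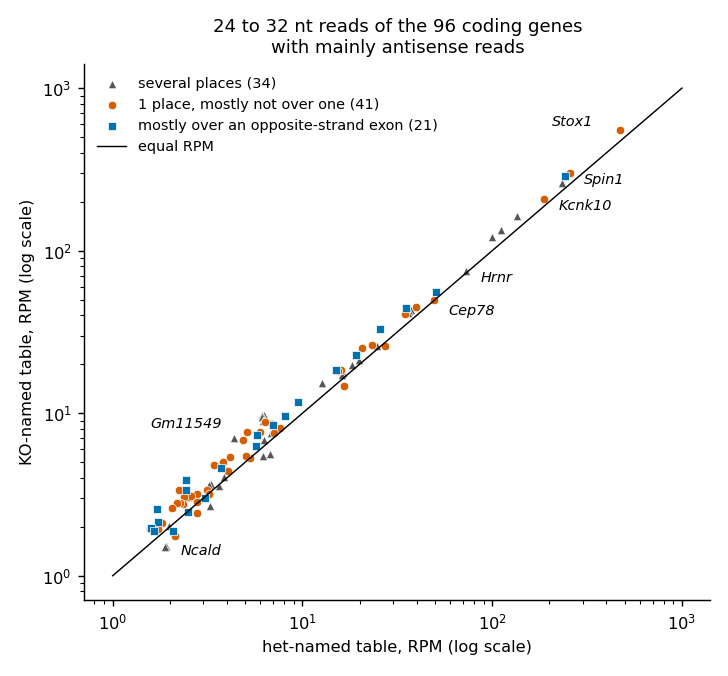
Reads of 24 to 32 nt of each of the 96 members in the het-named (x axis) and KO-named table (y axis), in RPM on log axes, with the 3 kinds marked by shape and colour and a line of equal RPM. The points follow the line, with 82 above it and 14 below it.

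The plot of RPM in both tables shows how close most members lie to the line. The highest ratios were those of Gm11549 (7.09 RPM and 4.35, log2 0.70), Ldlrad4, a regulator of TGF-beta signalling (3.88 and 2.42 RPM, log2 0.68), and Litaf, a protein of late endosomes (9.73 and 6.15 RPM, log2 0.66). With 1-place reads Litaf had a log2 ratio of 0.10 and with distinct sequences 0.03. Gm11549 and Litaf count the same read, as do Olfr822, Pi16 and Tmbim1, and these 5 spanned 0.53 to 0.70, so they are not separate observations. That read was also short, and only 0.256% of the Gm11549 reads were 29 to 31 nt long. The lowest were S1pr5, a sphingosine-1-phosphate receptor (1.5 and 1.89 RPM, log2 -0.33), Ncald, a neuronal calcium sensor that shares its reads (1.53 and 1.91 RPM, log2 -0.32), and Ugt3a1, a glycosyltransferase (1.75 and 2.13 RPM, log2 -0.28), which turned to 0.21 with distinct sequences. Their intervals each held a ratio of 1, from 0.593 to 1.06 in S1pr5 and from 0.625 to 1.08 in Ugt3a1. Those of S1pr5 and Ncald, with at most 0.49% of reads at 1 place, rest on shared counts and are not exact. Of the leading members, Stox1 had a ratio of 1.17 (1.15 to 1.19), Kcnk10 1.11 (1.08 to 1.14) and Hrnr 1.03 (0.983 to 1.07).

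Of 8 gene families counted by the start of the symbol, olfactory receptors held most members. Symbols beginning with Olfr made up 9 of the 96 members (9.38%) and 61 of the 3384 coding genes (1.80%). Of these 9, 8 had most reads at several places, and in all 9 the antisense reads lay over the 3′ UTR. Several of them share reads, so they are fewer than 9 separate sources. Vomeronasal receptors (Vmn) had 1 member of 45 such genes, zinc-finger genes (Zfp) 1 of 94 and symbols beginning with Slc 3 of 57 (3.13% of members, 1.68% of coding genes). Ribosomal protein genes had 0 of 23 (Rpl) and 0 of 19 (Rps) and histone genes 0 of 23, and no keratin gene reached 200 reads.

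Of 31 listed genes, among them the PIWI genes Piwil1, Piwil2 and Piwil4 and the Tudor-domain genes, 12 had at least 200 reads, and 10 of these were sense-type, where 71.7% of all coding genes were. Of the 12, 0 were mainly antisense, and 12 genes are too few to tell this from the 2.87% of all coding genes. The highest antisense share of the 12 was 19.3%, in Exd1, a piRNA biogenesis factor. Piwil2, which encodes MILI, had 17.7 RPM and 14.3 RPM, all in sense.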

How the data were processed

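From 20 µg of total testis RNA the fraction of 15 to 40 nt was purified on a 15% gel, per the labels' protocols. Each deposited table gives the raw count of reads of every distinct sequence, with no scaling by the authors, as the values show. For trimming, length filter and alignment the tools were not given in the sources used here.

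Sequences were matched with 0 mismatches to both strands of the GENCODE M21 transcripts with bwa 0.7.19 and projected to GRCm38. A place is a distinct position among annotated transcripts, a read counted by 1 over its places, and 102 sequences with over 2000 matches were left out. Tables were made with Python 3.11.15, numpy 2.4.6, pandas 2.3.3 and scipy 1.17.1, and figures with matplotlib 3.10.9. RPM used all reads of a table, and ratios added 0.5 reads. With 1 library per table no test was made. On simulated data, 99.95% of 2000 error-free reads cut from the members' transcripts had their gene and strand among their places. A read with several places passed if 1 of them was right. Counting intervals held a true log2 ratio of 0 in 95.3% of 3184 genes, of -1 in 93% of 100 and of 1 in 92% of 100. These counts were drawn with Poisson error alone, so both checks test the code and not the data.

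The members and lists were chosen with earlier results of these data known. Genes were named by rule: the 15 members with most reads, up to 10 more with no overlapping gene and at least 50% of reads at 1 place, the 3 highest and 3 lowest ratios, the 3 on each side of each threshold, and opposite genes of those members. Further genes were named after their values were seen. Some genes that the rule names are not reported here. Alternatives changed the read minimum, antisense share, length range, handling of places, scaling, region assignment and pair counting. Leaving out the 5 members with most reads was added after seeing the data.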

Additional observations from a re-analysis of the deposited data

How the results depend on the processing

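The number of genes chosen depended on the thresholds: it was 57 with a minimum of 500 reads, 157 with an antisense share of 80%, 61 with 95%, and 33 with distinct sequences in place of reads, of which 32 were among the 96. The median log2 ratio was 0.14 scaled to reads of 24 to 32 nt and -0.020 scaled to miRNA reads, the one setting that turned its sign. It was 0.24 with a 95% antisense share, 0.24 with 1-place reads (78 members), 0.13 with distinct sequences, 0.20 with 26 to 31 nt, 0.15 over the 33 members that overlap no gene, and 0.24 with each group of sharing members once. The first-U share was 72.3% over distinct sequences, 88.5% with 1-place reads, 90.1% as the median over members and 89.3% at 26 to 31 nt. The share of 29 to 31 nt was 36.1%, 48.1% and 41.8% under the first 3 of these, and 49.4% without the 5 members with most reads. Members with an opposite gene were 23 when at least 50% of antisense reads had to lie in its exons. Pairs overlapping by 10 nt were 6.03% with each pair of positions once and 26.2% with 1-place reads. With 1-place reads the shares over 3′ UTR, coding sequence and 5′ UTR were 52.8%, 36.5% and 1.31%, and by the transcript with most reads the last 2 were 32.4% and 1.10%. Scaling to miRNA reads or to reads of 24 to 32 nt shifted every log2 ratio by the same amount, -0.24 and -0.084. The causes of the other shifts were not tested. Of the values of the 30 members named by rule, 80 stayed within their counting interval under the alternatives and 62 did not. The 62 include values moved only by these constant shifts of scale. No paired analysis was possible because each table is 1 library and both are listed under 1 sample. Replicate error is unknown.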
